A study of Mus musculus with 12 samples.

Results

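The transcripts of 9 genes whose products stabilize, degrade or transcriptionally serve MYCN, or are targets of drugs directed at it, were described in tumors of MYCN transgenic mice. They are the kinase gene Aurka, the BET protein genes Brd2 and Brd3, the transcription kinase genes Cdk7 and Cdk9, and the genes Fbxw7, Huwe1, Usp7 and Mdm2, which encode ubiquitin enzymes of MYCN and p53. The genes were taken by name, and every probe set that the platform annotation gives to 1 of these symbols alone was used. This gave 32 of the 45037 probe sets tested and 9 of the 18193 genes measured. The study set tumors of the pancreas beside tumors of the head in LSL-MYCN;hGFAP-Cre mice, with 1 Affymetrix array per tumor and log2 signals as values. All 12 tumors carry both transgenes and were untreated, on a mixed genetic background. In these mice Cre recombinase is driven by the human GFAP promoter, and it opens a transgene that expresses human MYCN together with luciferase. The 9 pancreatic tumors have the numbers 1 to 5 and 9 to 12 in the labels. The 3 others, tumors 6, 7 and 8, are labelled brain. They are called pituitary tumors here, since the paper describes head tumors of the pituitary gland. Some mice bore tumors at both sites, and which of these 12 tumors share a mouse is not known here. P-values therefore measure only the spread between these samples, and arrays of normal tissue were not analysed here.

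MYCN is a short-lived protein. The F-box protein FBXW7 recognizes it once it is phosphorylated and hands it to the proteasome, and in human neuroblastoma cells Aurora A, the product of Aurka, binds MYCN and shields it from this step. HUWE1 is a second ubiquitin ligase that acts on MYCN, and USP7 is a protease that removes ubiquitin from MYCN and from MDM2, the ligase of p53. At the chromatin, BET proteins read acetylated histones and recruit CDK9, the kinase that releases paused RNA polymerase II, while CDK7 phosphorylates the polymerase at initiation and activates other cyclin-dependent kinases.

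Promoters are shown for 3 members. Aurka was taken because its level followed that of proliferation genes, and Fbxw7 because it differed most between the sites and has 3 annotated starts. Cdk7 was taken for its sequence and not its values, as the 1 member with the E-box CACGTG in the windows searched. Each line holds the 250 bases before a transcription start, 5′ to 3′, from RefSeq promoters of the build GRCm38.p6. They lie at chr2:172370571-172370820 on the minus strand for Aurka, at chr13:100730943-100731192 on the minus strand for Cdk7, and on the plus strand at chr3:84815327-84815576, chr3:84863895-84864144 and chr3:84951961-84952210 for the 3 starts of Fbxw7. Capitals mark CCAAT in the Aurka promoter and the E-box CACGTG, a site that MYC proteins bind, in the Cdk7 promoter.
Aurka: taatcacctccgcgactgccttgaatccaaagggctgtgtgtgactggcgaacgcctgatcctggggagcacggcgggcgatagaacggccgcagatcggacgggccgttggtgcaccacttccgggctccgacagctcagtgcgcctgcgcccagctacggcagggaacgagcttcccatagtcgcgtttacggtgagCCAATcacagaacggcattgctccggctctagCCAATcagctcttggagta
Cdk7: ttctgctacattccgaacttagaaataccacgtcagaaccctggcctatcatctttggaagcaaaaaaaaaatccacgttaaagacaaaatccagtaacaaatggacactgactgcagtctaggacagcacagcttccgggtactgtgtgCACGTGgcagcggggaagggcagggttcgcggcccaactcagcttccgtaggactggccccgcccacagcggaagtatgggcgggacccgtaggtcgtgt
Fbxw7 start 1: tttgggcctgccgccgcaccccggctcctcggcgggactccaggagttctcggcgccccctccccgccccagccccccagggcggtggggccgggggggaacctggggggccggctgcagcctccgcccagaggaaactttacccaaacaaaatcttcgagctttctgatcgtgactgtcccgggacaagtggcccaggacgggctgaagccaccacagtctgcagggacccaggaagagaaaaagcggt
Fbxw7 start 2: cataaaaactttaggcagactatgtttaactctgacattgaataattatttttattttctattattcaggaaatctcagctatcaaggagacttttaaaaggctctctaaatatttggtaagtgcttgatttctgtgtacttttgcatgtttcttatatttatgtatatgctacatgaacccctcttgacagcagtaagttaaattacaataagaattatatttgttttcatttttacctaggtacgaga
Fbxw7 start 3: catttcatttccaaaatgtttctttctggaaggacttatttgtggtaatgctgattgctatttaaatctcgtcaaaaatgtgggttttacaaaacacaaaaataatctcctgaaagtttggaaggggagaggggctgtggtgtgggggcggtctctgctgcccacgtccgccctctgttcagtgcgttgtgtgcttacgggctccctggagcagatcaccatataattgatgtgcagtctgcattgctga
In windows of 300 bases that also take in 50 bases after the start, CACGTG was found in 7.15% of 32851 mouse promoters on either strand. All 9 members were matched, to 13 promoters, and CACGTG lay in 1 of them, that of Cdk7. CCAAT was found in 37.4% of all promoters and in 4 of the 13, those of Aurka, Cdk9, Mdm2 and Usp7. The Aurka promoter held 2 copies of CCAAT on the forward strand and, after its start, the cell cycle element TTTGAA, which 17.9% of all promoters hold. The promoters of Fbxw7 held none of these motifs, and they differed in base composition, with 68% G and C before start 1, 28.8% before start 2 and 45.6% before start 3. A match is a description of the letters and not of a bound site.

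Endocrine pancreas markers passed the test as higher in pancreatic tumors for 6 of 8 genes, where 1.61% of all genes did. Anterior pituitary markers passed as lower for 7 of 9, where 4.5% of all genes did, so the sites stood apart by their markers. RNA of other tissues was uneven among the tumors. The mean log2 signal of 4 hepatocyte genes was 14.66 in pancreatic tumor 2, 12.71 in tumor 3 and 12.97 in tumor 4, against 7.26 to 10.27 in the other pancreatic tumors and 6.29 to 7.38 in pituitary tumors. The mean of 7 acinar genes was 12.60 in pancreatic tumor 3, 11.71 in tumor 4 and 10.05 in tumor 10. The mean of 6 astroglial genes was 5.49 to 6.90 in pancreatic tumors, against 11.73 in pituitary tumor 6, 7.68 in tumor 7 and 11.58 in tumor 8. The gap between the 3′ and 5′ control probe sets of actin, which widens as RNA degrades, was 3.48 in pancreatic tumor 5, 0.57 to 0.87 in tumors 10 to 12, 1.54 to 2.08 in the other pancreatic tumors and 1.51, 2.07 and 2.20 in pituitary tumors. Correlations between arrays were 0.803 to 0.985 within pancreatic tumors, 0.937 to 0.965 within pituitary tumors and 0.807 to 0.946 between the sites, so the least alike pancreatic pair lay below every pair across the sites.

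The 9 members were expressed at both sites. Of the 32 probe sets, 21 lay above the median of their array in all 12 tumors, 4 lay at or below it in all, and 7 were mixed. Compared between the sites with limma, pancreatic minus pituitary, 0 of 32 probe sets passed an adjusted p of 0.05, where 4.63% of all probe sets did, 1.18% as higher and 3.45% as lower. With each gene represented by its probe set of highest mean signal, 0 of 9 genes passed, against 6.11% of all genes, 1.61% as higher and 4.5% as lower. At an unadjusted p below 0.05 there were 8 of 32 probe sets and 2 of 9 genes (Fbxw7 and Huwe1), where the shares over all were 19.4% and 23.8%. The ranges of the sites were apart for 2 of 32 probe sets, or 6.25%, against 7.88% of all probe sets, and for 0 of the 9 representatives, against 9.56% of all genes. The median difference of the 9 genes was 0.09 on the log2 scale, with 5 higher and 4 lower in pancreatic tumors, beside a median of 0.03 over all genes. In a bulk sample fewer cells of a type and less RNA per cell cannot be told apart.

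**Figure D1:**
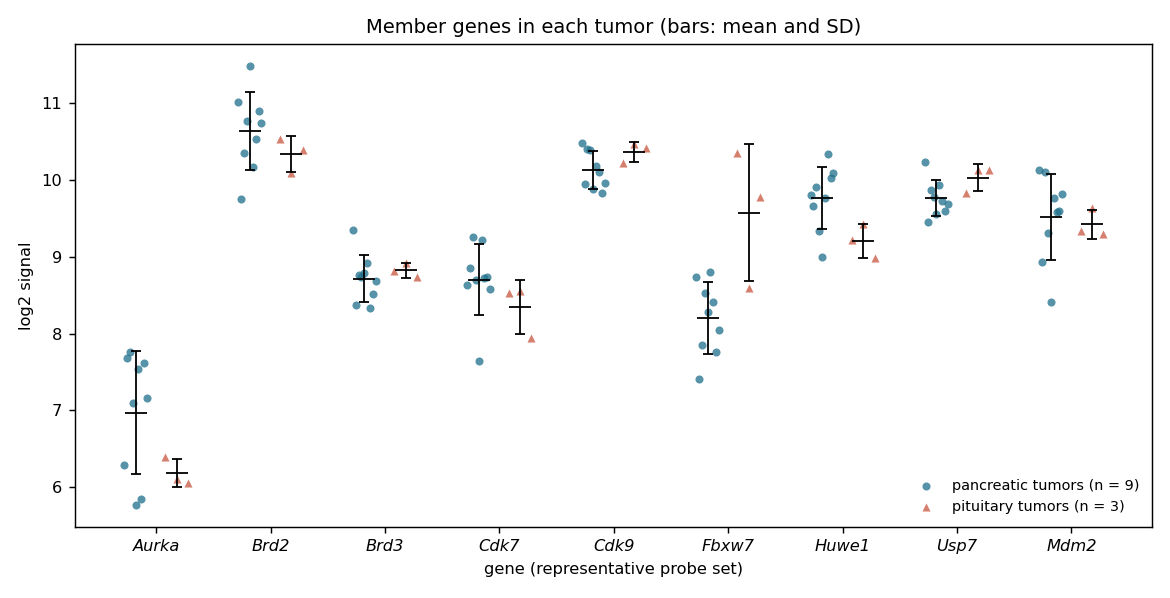
Log2 signal of the representative probe set of each of the 9 members, 1 point per tumor, with 9 pancreatic tumors left of 3 pituitary tumors and bars for the mean and SD. The groups overlap for every gene, and Fbxw7 has its highest values in pituitary tumors 6 and 8, at 10.35 and 9.78.

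Aurka encodes the mitotic kinase Aurora A. Its log2 signal was 5.77 at the lowest, 7.16 at the median and 7.76 at the highest in the 9 pancreatic tumors, against 6.40, 6.11 and 6.05 in pituitary tumors 6, 7 and 8. Of the pancreatic tumors 6 lay above every pituitary tumor and 2, tumors 5 and 10, lay below every one, so the groups overlapped. The mean was 6.97 ± 0.80 in pancreatic tumors (SD, n = 9) and 6.19 ± 0.18 in pituitary tumors (SD, n = 3), a difference of 0.79 on the log2 scale (SE 0.44, 95% interval -0.18 to 1.75, limma adjusted p = 0.359). Among the representatives of the members this was the largest SD between pancreatic tumors, where the lowest was 0.24, that of Usp7. The median SD was 0.54 over genes whose signal, averaged over the 2 group means, lay above that of the median probe set. A second Aurka probe set lay at or below the array median in all 12 tumors.

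Aurka followed the proliferation genes from tumor to tumor. Over the 9 pancreatic tumors its signal was set against the mean centred log2 signal of 17 measured proliferation genes, among them Mki67, the gene of the Ki-67 antigen, and the mitotic genes Ccnb2 and Cdc20. Tumors 5 and 10 were lowest in both measures and tumor 3 was highest in both. Pearson's r was 0.97 (exact permutation p = 0.000116, adjusted over 4 relations 0.000463) and Spearman's rho 0.95 (exact permutation p = 0.000353, adjusted 0.00141). Without tumors 5 and 10, the 2 farthest from the median, r was 0.92 (adjusted exact permutation p = 0.0175), and without tumors 10 to 12, whose RNA ends set them apart, it was 0.96 (adjusted exact permutation p = 0.0167). Spearman's rho was 0.89 in the first case (adjusted exact permutation p = 0.0492) and 0.94 in the second, where it no longer passed (adjusted exact permutation p = 0.0667). The genes most like Aurka among 12238 searched were Kif20a (r = 0.99) and Ccnb2 (r = 0.99), which act in cytokinesis and mitosis, and Birc5 (r = 0.98), a subunit of the chromosomal passenger complex, over the same 9 tumors. Against Mycn, Aurka gave r = 0.32 (exact permutation p = 0.39, adjusted 0.39) and rho = 0.50 (exact permutation p = 0.178, adjusted 0.237).

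**Figure D2:**
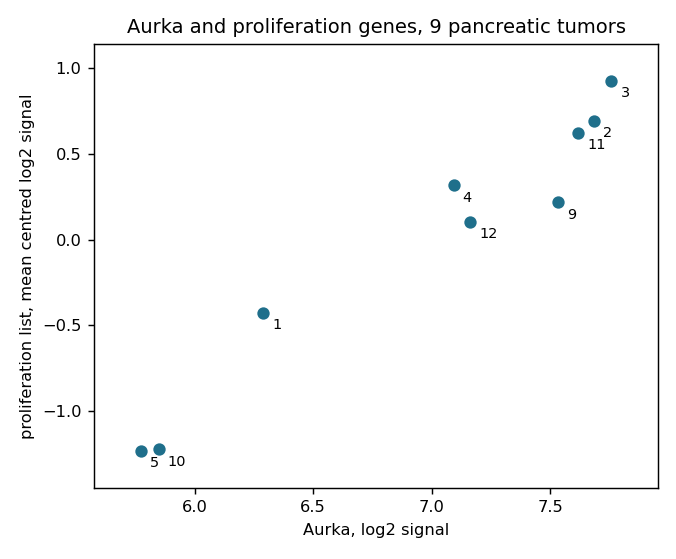
Log2 signal of Aurka on the horizontal axis and the mean centred log2 signal of 17 proliferation genes on the vertical axis, with 1 point for each of the 9 pancreatic tumors, numbered as in the labels. Tumors 5 and 10 lie at the lower left and tumor 3 at the upper right (r = 0.97).

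Between the sites the proliferation genes had the direction of Aurka without passing the test. The difference was above 0 for 16 of 17, with a median of 0.61 beside 0.03 over all genes. Of the 16, 1 had a difference of 0.02 and lay at or below the array median in all 12 tumors. In limma 0 of 17 passed, where 6.11% of all genes did. Mcm6 (1.80, adjusted p = 0.0769) and Ube2c (1.29, adjusted p = 0.25), named after their values were seen, were the 2 at an unadjusted p below 0.05. Over all genes the share there was 23.8%. Mki67 differed by 0.63 (limma adjusted p = 0.502). Of 10 genes that work with Aurora A or belong to the Aurora B complex, 9 were measured. In limma 0 passed the adjusted threshold, where 6.11% of all genes did, and 0 the unadjusted one, where 23.8% did. The median difference was 0.29, beside 0.03 over all genes.

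Both BET protein genes lay above the array median in all tumors on their representative probe sets. Brd2 had a log2 signal of 9.74, 10.74 and 11.48 at the lowest, median and highest in pancreatic tumors, against 10.54, 10.08 and 10.39 in the 3 pituitary tumors. On this probe set tumor 2 was lowest and tumor 5 highest, and the pituitary values lay between them. The difference was 0.30 (SE 0.30, 95% interval -0.35 to 0.94, limma adjusted p = 0.62), and the other Brd2 probe set gave 0.25 (adjusted p = 0.61). On that other probe set tumor 2 was again lowest, at 9.42, but tumor 5 lay at 9.45 and tumor 1 was highest, at 10.50. The place of tumor 5 thus depended on the probe set.

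Brd3 had 8.34, 8.73 and 9.34 at the lowest, median and highest in pancreatic tumors, against 8.81, 8.92 and 8.73 in pituitary tumors 6, 7 and 8. The difference was -0.11 (SE 0.19, 95% interval -0.52 to 0.30, limma adjusted p = 0.794). The 3 other Brd3 probe sets all had a difference above 0, so the direction depended on the probe set. One of them, 1450902_at, gave 7.37, 7.70 and 7.97 at the lowest, median and highest in pancreatic tumors, against 7.18, 7.35 and 7.33 in pituitary tumors. On it each of the pancreatic tumors exceeded all 3 pituitary ones, by a mean difference of 0.355 (limma adjusted p = 0.217). For a further one, 1460328_at, the difference was 0.52 (limma adjusted p = 0.282).

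Among the transcription kinases Cdk9 was the steadier. Its log2 signal was 9.82, 10.10 and 10.48 at the lowest, median and highest in pancreatic tumors, against 10.22, 10.47 and 10.42 in pituitary tumors 6, 7 and 8. The groups overlapped, with 6 pancreatic tumors below every pituitary tumor, and the means differed by -0.24 (SE 0.16, 95% interval -0.60 to 0.12, limma adjusted p = 0.453). A second Cdk9 probe set lay at or below the array median in all tumors.

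Cdk7, the kinase of the general transcription factor TFIIH, was read by 5 probe sets that gave opposite directions. On its representative, 1451741_a_at, the log2 signal was 7.65, 8.73 and 9.25 at the lowest, median and highest in pancreatic tumors, against 8.53, 8.56 and 7.94 in pituitary tumors 6, 7 and 8. Of the pancreatic tumors 8 lay above every pituitary tumor and 1, tumor 5, lay below every one, and the means differed by 0.36 (SE 0.28, 95% interval -0.26 to 0.98, limma adjusted p = 0.519). On 1435299_at the signal was 6.97, 7.70 and 8.03 at the lowest, median and highest in pancreatic tumors, against 8.37, 8.39 and 8.10 in pituitary tumors. Here all 9 pancreatic tumors lay below every pituitary tumor, by -0.65 (SE 0.20, 95% interval -1.10 to -0.20, limma adjusted p = 0.0988). The differences were -0.78 on 1439511_at (adjusted p = 0.406), -0.62 on 1458987_at (adjusted p = 0.177) and -0.26 on 1424257_at (adjusted p = 0.684).

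The probe sets of Cdk7 also parted from each other among the pancreatic tumors. Between 1451741_a_at and 1439511_at Pearson's r was -0.55 over the 9 pancreatic tumors, given as a description. The log2 gap between them was -1.90 in tumor 5 and 0.10 to 1.93 in the other pancreatic tumors, against -0.19, 0.02 and -0.82 in pituitary tumors 6, 7 and 8. Tumor 5 is the tumor with the widest 3′ to 5′ gap of actin. Over the 7 members with a pair of probe sets above the array median in all tumors, the gap of the pair with the highest means was lowest in tumor 5 for 4 and highest in it for 2, among the pancreatic tumors. The part of RNA quality in these gaps was not tested.

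The 15 measured partners of these proteins include the CDK7 subunits Ccnh and Mnat1, the cyclins Ccnt1 and Ccnt2 of CDK9 and its inhibitor Hexim1. Of them 0 passed the adjusted threshold in limma, where 6.11% of all genes did. At the unadjusted threshold, which 23.8% of all genes passed, there was 1, Nelfe (0.75, adjusted p = 0.0783). It encodes a subunit of the complex that pauses the polymerase and was named after its value was seen. The differences of the 15 partners ran from -0.53 to 0.75, with a median of -0.17 beside 0.03 over all genes.

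Fbxw7 had the largest difference of the members. Its log2 signal on 1451558_at was 7.41, 8.28 and 8.80 at the lowest, median and highest in pancreatic tumors, against 10.35, 8.59 and 9.78 in pituitary tumors 6, 7 and 8. Of the pancreatic tumors 7 lay below every pituitary tumor, and tumors 1 and 9 overlapped with pituitary tumor 7. The mean was 8.20 ± 0.47 in pancreatic tumors (SD, n = 9) and 9.57 ± 0.89 in pituitary tumors (SD, n = 3), a difference of -1.37 on the log2 scale, or a signal of 0.387 times (SE 0.36, 95% interval -2.16 to -0.58, limma adjusted p = 0.0539). The other probe set, 1424986_s_at, gave 7.11, 8.19 and 9.41 at the lowest, median and highest in pancreatic tumors, against 10.15, 8.56 and 9.58 in pituitary tumors. There 8 of 9 pancreatic tumors lay below every pituitary tumor, and the difference was -1.26 (SE 0.43, limma adjusted p = 0.126).

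The size of this difference rested on which pituitary tumors were compared. Without pituitary tumor 7 it was -1.86 (adjusted p = 0.00757), without tumor 6 it was -0.98 (adjusted p = 0.283), without tumor 8 it was -1.27 (adjusted p = 0.225), and against tumor 7 alone, with the spread taken from the pancreatic tumors, it was -0.39. Pituitary tumors 6 and 8, which were high in Fbxw7, were also high in brain markers. Their mean of 6 astroglial genes was 11.73 and 11.58 and that of 6 neuronal genes 8.97 and 8.59, against 7.68 and 5.24 in pituitary tumor 7. In pancreatic tumors the astroglial mean was 5.49 to 6.90 and the neuronal mean 4.19 to 5.10, and Slc1a3, an astroglial glutamate transporter gene, lay at or below the array median in all 9. Of the astroglial genes 4 of 6 passed as lower in pancreatic tumors, where 4.5% of all genes did. The part of these markers in the Fbxw7 difference was not tested.

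**Figure D3:**
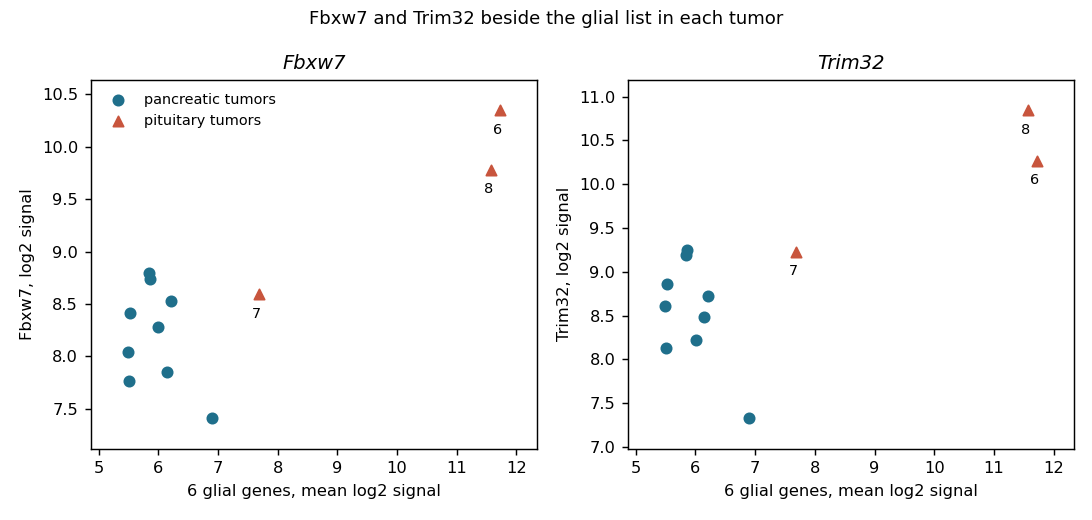
Log2 signal of Fbxw7 (left) and of Trim32 (right) against the mean log2 signal of 6 astroglial genes, with 1 point per tumor in 9 pancreatic and 3 pituitary tumors. Pituitary tumors 6 and 8 are high in each measure, and pituitary tumor 7, at 8.59 for Fbxw7 and 9.23 for Trim32, lies within the pancreatic range of either gene but above all pancreatic tumors in the astroglial mean (7.68).

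Among the 9 pancreatic tumors the correlation of Fbxw7 with Mycn was below 0 and did not pass the threshold after adjustment. Pearson's r was -0.67 (exact permutation p = 0.0509, adjusted 0.102) and Spearman's rho -0.73 (exact permutation p = 0.0311, adjusted 0.0622), and r was -0.65 without tumors 2 and 9, the farthest from the median. Without tumor 5, an alternative chosen after the data were seen, rho was -0.81 (adjusted exact permutation p = 0.0436), while r, at -0.68, did not pass (adjusted exact permutation p = 0.123). The Mycn probe set used had a log2 signal of 6.82 ± 0.24 in pancreatic tumors (SD, n = 9) and 6.38 ± 0.18 in pituitary tumors (SD, n = 3), a difference of 0.44 (limma adjusted p = 0.154). A second Mycn probe set, at or below the array median in all 9 pancreatic tumors, went the other way, by -1.33 (limma adjusted p = 0.025). The third, at or below the array median in all 12 tumors, gave 0.11 (limma adjusted p = 0.732). The platform's Mycn probes were designed on the mouse gene, and how far they read the human transgene was not tested.

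Huwe1 encodes a large ligase with MYCN and p53 among its known substrates in human cells. Its representative gave 9.00, 9.80 and 10.34 at the lowest, median and highest in pancreatic tumors, against 9.21, 9.42 and 8.99 in pituitary tumors 6, 7 and 8. Of the pancreatic tumors 7 lay above every pituitary tumor, and the difference was 0.56 (SE 0.24, 95% interval 0.03 to 1.09, limma adjusted p = 0.228). Another probe set, 1424949_at, turned the direction round, with 6.87, 7.56 and 8.16 at the lowest, median and highest in pancreatic tumors, against 8.43, 7.86 and 7.84 in pituitary tumors. Its difference was -0.55 (SE 0.24, 95% interval -1.08 to -0.03, limma adjusted p = 0.234). The log2 gap between these probe sets was 1.36 to 2.96 in pancreatic tumors, against 0.79, 1.56 and 1.15 in pituitary tumors 6, 7 and 8.

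Usp7 varied least. The signal was 9.45, 9.73 and 10.24 at the lowest, median and highest in pancreatic tumors, against 9.83, 10.13 and 10.13 in pituitary tumors 6, 7 and 8. The groups overlapped, and the difference was -0.27 (SE 0.16, 95% interval -0.62 to 0.08, limma adjusted p = 0.389). Of its 7 probe sets 6 had a difference below 0. The probe set 1454949_at, also above the array median in all tumors, varied more between pancreatic tumors, with an SD of 0.42.

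Mdm2 is both the ligase that degrades p53 and a p53 target. Its representative had 8.41, 9.59 and 10.13 at the lowest, median and highest in pancreatic tumors, against 9.34, 9.63 and 9.29 in pituitary tumors 6, 7 and 8. The pituitary values lay inside the pancreatic range, and the difference was 0.09 (SE 0.32, 95% interval -0.60 to 0.79, limma adjusted p = 0.901). The probe set 1427718_a_at showed more, with 6.88, 8.34 and 8.60 at the lowest, median and highest in pancreatic tumors, against 6.91, 7.26 and 7.00 in pituitary tumors. On it 8 pancreatic tumors exceeded all 3 pituitary ones, and tumor 2, the one highest in hepatocyte genes, lay below them all. The difference was 1.00, or a signal of 2.00 times (SE 0.32, 95% interval 0.31 to 1.69, limma adjusted p = 0.102), and without tumor 2 the adjusted p was 0.0116. Without pancreatic tumors 10 to 12 the difference was 0.77 (limma adjusted p = 0.28). Leaving out pituitary tumor 6, 7 or 8 gave 0.93, 1.10 and 0.97 (limma adjusted p = 0.319, 0.147 and 0.315). Over the pancreatic tumors these 2 probe sets correlated with r = 0.02, as a description. Their log2 gap was -0.02 in tumor 5 and 1.28 at the median in pancreatic tumors, against 2.43, 2.37 and 2.29 in pituitary tumors.

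**Figure D4:**
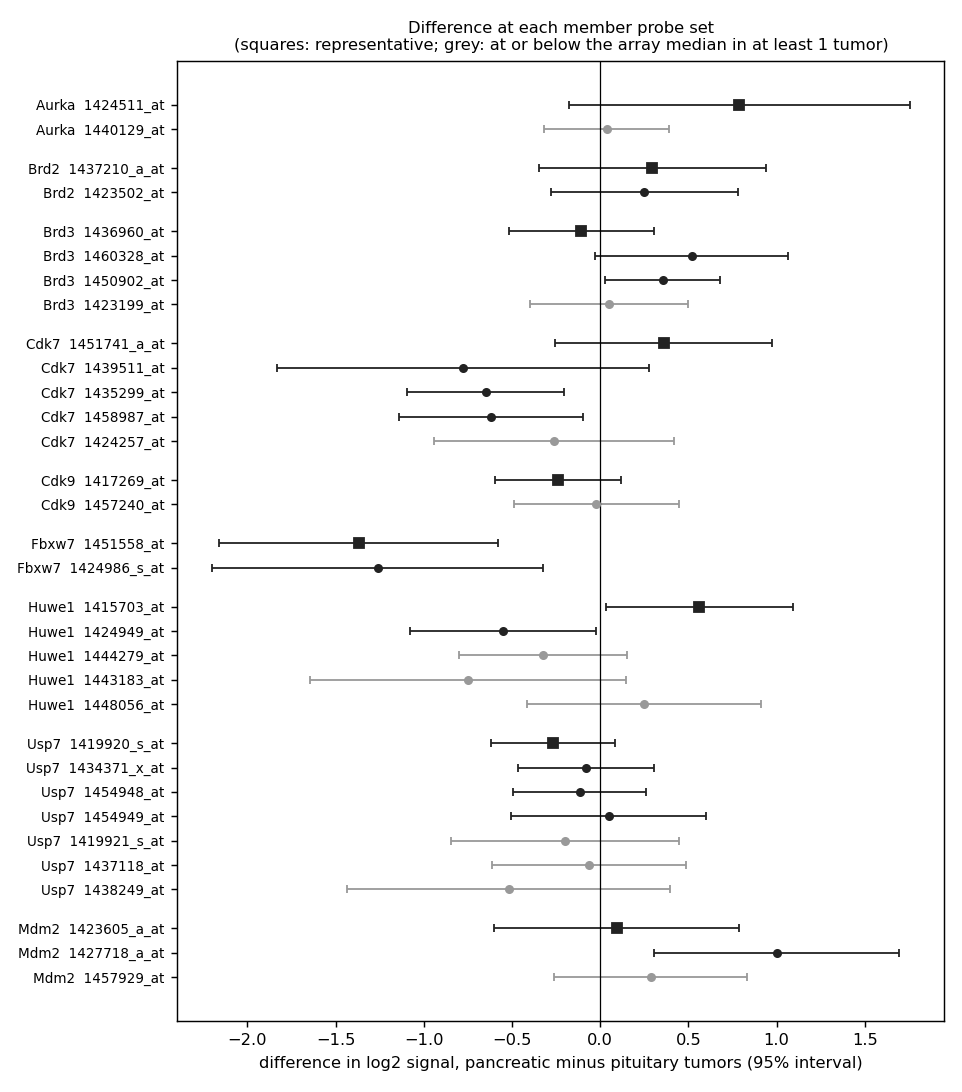
Log2 difference, pancreatic minus pituitary, of each of the 32 member probe sets with its 95% interval, by gene, from limma on 9 pancreatic and 3 pituitary tumors. The probe sets of Fbxw7 lie lowest, at -1.37 and -1.26, and those of Cdk7, Huwe1 and Brd3 fall on both sides of 0.

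Over 12 measured p53 target genes 0 passed the adjusted threshold in limma, where 6.11% of all genes did. At the unadjusted one there were 0 as well, where the share over all genes was 23.8%. The median difference was 0.24, beside 0.03 over all genes. Mdm4, a relative of Mdm2 that also binds p53, differed by -0.49 (limma adjusted p = 0.462). Mdm2 and the p53 targets without Mdm4 gave r = 0.56 over the 9 pancreatic tumors (exact permutation p = 0.118, adjusted 0.157) and rho = 0.27 (exact permutation p = 0.49, adjusted 0.49). Without tumors 2 and 5, the farthest from the median, r was -0.60, so the sign of this relation rested on those tumors.

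Of 18 further genes of MYC protein turnover or ubiquitination, 15 were measured. Of these 2 passed, both lower in pancreatic tumors, where 4.5% of all genes did so. The median difference over the list was -0.16, beside 0.03 over all genes. Trim32, a ubiquitin ligase that acts on MYC in mouse neural progenitors, had a log2 signal of 7.33, 8.61 and 9.25 at the lowest, median and highest in pancreatic tumors, against 10.27, 9.23 and 10.84 in pituitary tumors 6, 7 and 8. Of the pancreatic tumors 8 lay below every pituitary tumor and tumor 1 overlapped with pituitary tumor 7, and the signal fell by 1.58 on the log2 scale (SE 0.40, limma adjusted p = 0.0447). Fbxo28, an F-box protein that ubiquitinates MYC in human cells, had 7.20, 7.76 and 8.07 at the lowest, median and highest in pancreatic tumors, against 8.28, 8.41 and 9.10 in pituitary tumors. All 9 pancreatic tumors lay below the pituitary ones, by 0.91 on average (SE 0.22, limma adjusted p = 0.0379), while its other probe sets gave -0.68 (adjusted p = 0.235) and -0.60 (adjusted p = 0.165). Neither gene passed without pituitary tumor 8, where the differences were -1.21 (adjusted p = 0.253) for Trim32 and -0.66 (adjusted p = 0.225) for Fbxo28, nor without pituitary tumor 6, where they were -1.50 (adjusted p = 0.189) and -1.06 (adjusted p = 0.0702). Leaving out pancreatic tumor 3, 4, 5, 10, 11 or 12 also ended the call of Trim32, with adjusted p of 0.0602 to 0.0741, and leaving out pancreatic tumor 3, 4, 9, 10 or 12 or pituitary tumor 7 did so for Fbxo28, with adjusted p of 0.0509 to 0.0677. Both calls also ended with quantile normalization (adjusted p = 0.0528 for Trim32 and 0.0626 for Fbxo28), with an unmoderated variance (0.0806 and 0.0599) and without pancreatic tumors 10 to 12 (0.157 and 0.109). That of Fbxo28 ended with median centring (0.0587) and with a trended and robust variance (0.0621) as well. Pituitary tumors 6 and 8 are those high in astroglial and neuronal genes. Trim32 was higher in both than in tumor 7, while Fbxo28 was lower in tumor 6 (8.28) than in tumor 7 (8.41). The part of the astroglial and neuronal genes in these differences was not tested.

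Among the pancreatic tumors the extremes of the members fell on a few tumors. Over the 21 member probe sets above the array median throughout, tumor 2 was lowest 8 times and never highest, and tumor 1 was highest 8 times and never lowest. Tumor 5 was lowest 6 times and highest 5 times, and tumor 3 was highest 4 times. Tumor 2 had the highest hepatocyte signal and the lowest endocrine pancreas signal, with a mean over 8 marker genes of 9.13 against 10.92 to 12.45 in the other pancreatic tumors, and was lowest in each of these genes. Tumor 5 had the widest 3′ to 5′ gap. The part of these measures in the extremes was not tested. The limma array weights, estimated over all probe sets, were lowest of the 12 tumors in tumors 5 and 2, at 0.31 and 0.37. How often each tumor was extreme over all probe sets was not counted, so these tallies are not particular to the members. Several of the 21 probe sets also read the same gene.

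**Figure D5:**
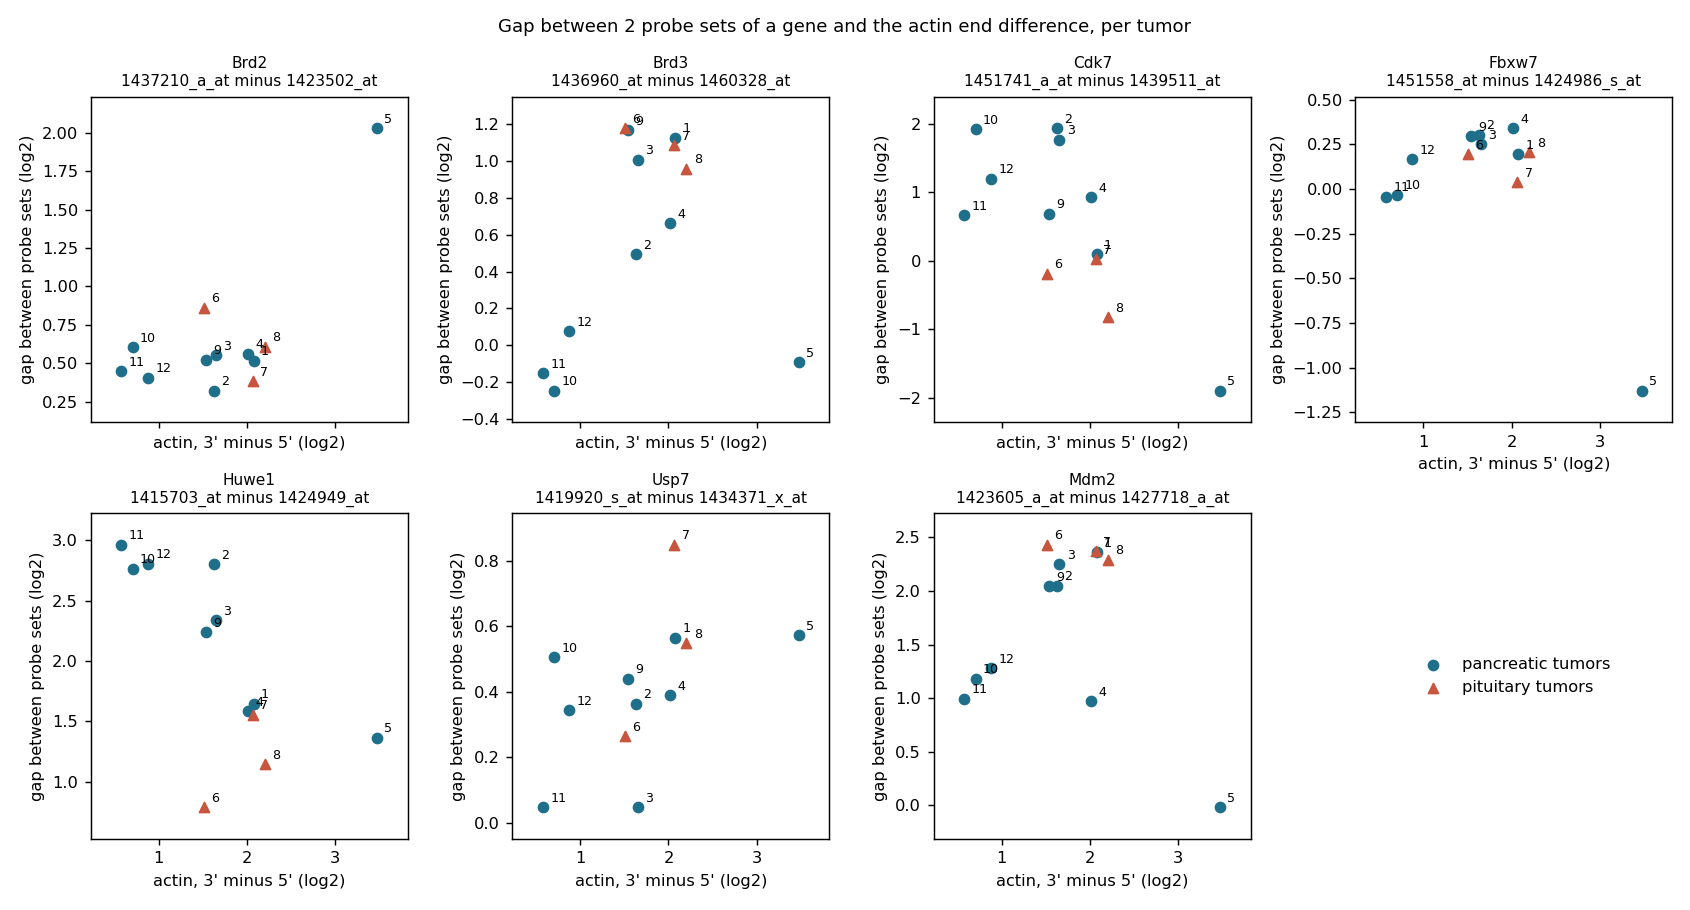
Log2 gap between a pair of probe sets of the same gene, on the vertical axis, for the 7 members with a pair above the array median in all tumors, against the log2 gap of the 3′ and 5′ probe sets of actin, with 1 point per tumor in 9 pancreatic and 3 pituitary tumors. Pancreatic tumor 5, at an actin gap of 3.48, has the lowest gap of the pancreatic tumors for 4 pairs (Cdk7, Fbxw7, Huwe1 and Mdm2) and the highest for 2 (Brd2 and Usp7), while for Brd3 tumor 10 is lowest, at -0.25, with tumor 5 at -0.09.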

How the data were processed

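RNA of 9 pancreatic and 3 pituitary tumors was hybridized to Affymetrix MG-430_2.0 arrays, 1 per tumor. The authors deposited log2 signals, normalized between arrays. For normalization Partek Genomics Suite is named (version not stated), and for a further analysis RMA in the affy package, without saying which gave these signals. They were used with no further normalization. Arrays have no read depth, and their number limits the precision.

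Of 45101 probe sets 64 controls were left out. The platform annotation gave 1 symbol to 34945 probe sets, several to 932 and none to 9160, and 34741 of the first matched RefSeq by Entrez identifier with 0 symbols changed. For 1 value a gene, the probe set of highest mean signal was taken, averaged over the 2 group means. The sites were compared in limma 3.58.1 (lmFit, eBayes; R 4.3.3) over all 45037 probe sets, with Benjamini-Hochberg adjustment and a threshold of 0.05. The fit was tested on simulated data. Relations over the 9 pancreatic tumors used exact permutation of pairings, two-sided, adjusted over 4 relations, with scipy 1.17.1, numpy 2.4.6 and pandas 2.3.3 in Python 3.11.15, and figures matplotlib 3.10.9.

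By the rule for named genes the text names all members, the genes of pathway lists past the threshold, Mycn, Mki67 and Mdm4, and for each member the 3 genes with the highest Pearson correlation over the pancreatic tumors. The rule also took in cell type marker lists, which are given as counts and means with only Slc1a3 named. Mcm6, Ube2c and Nelfe were named after their values were seen, and other genes only to say what a list holds. Members and lists were chosen with earlier results of these data known. Alternatives were array weights, quantile normalization, centring on array medians, variance without moderation or with a robust trend, only probe sets above the median, gene means over probe sets, and tumors left out. Some genes that belong with these lists are not reported here.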

Additional observations from a re-analysis of the deposited data

Results flagged for a closer look

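In 3 of 35 measures tested over the 9 pancreatic tumors, 1 tumor lay far from the others by Dixon's test, and in all 3 it was tumor 5. Chance marks groups at a rate of 0.05. Cdk7 on 1451741_a_at was lowest in tumor 5, at a log2 signal of 7.65, with the next tumor at 8.58 and a gap of 0.582 of the range. Huwe1 on 1448056_at was highest there, at 5.84, with the next at 4.66 and a gap of 0.648 of the range. Mdm2 on 1457929_at was highest there too, at 4.87, with the next at 3.95 and a gap of 0.643 of the range. The probe set of Mdm2 lay at or below the array median in all 9 pancreatic tumors, and that of Huwe1 in 8 of them. Tumor 5 had the widest gap between the 3′ and 5′ probe sets of actin, 3.48, and of Gapdh, 2.29, and the part of this gap in the values was not tested.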

How the results depend on the processing

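The counts of members past the threshold were low under every alternative run. Member genes called were 1 with array weights, 1 with a filter at the median probe set and 0 to 1 with a tumor left out, and each time it was Fbxw7, lower in pancreatic tumors (1 without pituitary tumor 7). Its adjusted p was 0.0129 with array weights and 0.0401 with the filter. Member probe sets called were 3 of 32 with array weights (both of Fbxw7 lower and Mdm2 1427718_a_at higher) and 1 of 26 with the filter. They were 0 to 1 with a tumor left out (Mdm2 without pancreatic tumor 2, Fbxw7 without pituitary tumor 7). They were 2 without pancreatic tumors 2 and 5, an alternative chosen after the data were seen. Over all probe sets the count was 5028 of 45037 with array weights and 1753 of 22518 with the filter, against 2085 of 45037 as reported. It was 2797 without pancreatic tumor 2, 2500 without pituitary tumor 7 and 3250 without pancreatic tumors 2 and 5. In the other alternatives that kept at least 2 tumors at each site it lay from 785 to 2169.

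Other pathway genes called, 2 as reported, were 0 with quantile normalization, 1 with median centring, 6 with array weights, 1 with a trended and robust variance, 0 with an unmoderated test, 0 without pancreatic tumors 10, 11 and 12, and 0 to 2 with a tumor left out. Of 2 alternatives chosen after the data were seen, they were 0 without pituitary tumors 6 and 8 and 3 without pancreatic tumors 2 and 5 (Nelfe higher, Trim32 and Fbxo28 lower). The cause was not tested.

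The sign turned for Brd3 with quantile normalization (0.043) and with the mean of all its probe sets (0.20), for Cdk7 (-0.39) and Huwe1 (-0.16) with the mean of all probe sets, and for Mdm2 without pituitary tumors 6 and 8 (-0.12). The relation of Mdm2 to p53 targets turned to r = -0.60 without the 2 tumors farthest from the median. Aurka, Brd2, Cdk9, Fbxw7 and Usp7 kept their direction under all 22 alternatives. Among these, the trended and robust variance, the unmoderated variance and the filter leave the difference itself unchanged. Their direction was thus fixed in advance. Signals at or below the array median limit 4 member probe sets throughout. No paired analysis was possible because which tumors share a mouse is not known here.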

Other observations

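The transcripts most like each other member over the 9 pancreatic tumors, among 12238 genes expressed above the median, were as follows, as a description in which the points share tumors and arrays. Cdk9 ran closest with Ppm1d (r = 0.99), a phosphatase of the p53 response, followed by Camk2g and Sos2. Usp7 ran with the expressed sequence AW551984 (r = 0.99) and with Hp1bp3 and Fam76a (r = 0.98 each). Mdm2 ran with Arid1a (r = 0.98), a chromatin remodelling subunit, Mterf2 and Ccndbp1. Cdk7 ran with the Mediator subunit gene Med14 (r = 0.98), the proteasome-bound ubiquitin protease gene Usp14 (r = 0.97) and Tmod3.

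Fbxw7 ran with Efnb3 (r = 0.97), an ephrin ligand gene, Sphkap and the kinase gene Prkd1, and Brd2 with the imprinted RNA Meg3 (r = 0.98), Shank3 and Casz1. Over all 12 tumors r was 0.60 for Fbxw7 with Efnb3 and 0.38 for Brd2 with Shank3. Brd3 ran with Chd9, C2cd4c and Ttbk2 (r = 0.96 each), and Huwe1 with Taf1b (r = 0.96), Tsc2 and Ifitm5 (r = 0.94 each). Without tumors 2 and 5 the correlation of Mdm2 with Arid1a was 0.88 and that of Huwe1 with Ifitm5 was 0.86.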
